A study of Mus musculus with 4 samples.

Results

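The retinoic acid genes described here are 9 genes chosen by name from the expression tables of mouse embryonic stem (ES) cells: the receptors Rara, Rarb and Rarg, the retinol transporter gene Stra6, the synthesis enzyme gene Aldh1a2, the breakdown enzyme gene Cyp26a1, the carrier genes Crabp1 and Crabp2, and Stra8. All 9 symbols were found among the 22718 genes of the tables. RNA-seq was available for 1 wild type library and 1 library labelled Prep1-/- (line KO2), both from C57BL/6 ES cells. For their derivation in the authors' laboratory the paper cites earlier work. The cells were kept undifferentiated on gelatin with serum and leukemia inhibitory factor. The library labelled Prep1-/- came from a single line, and a Prep1 ChIP-seq peak list from wild type ES cells was also used. The labels give the ChIP strain as C57BL/6, while their protocol names the R1 line.

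Retinoic acid is made from retinol in successive oxidations and enters the nucleus, where it binds a receptor (RAR) paired with a retinoid X receptor (RXR) on direct repeats of a short half-site. With ligand the pair recruits coactivators, and without it corepressors. In ES cells retinoic acid is widely used to drive differentiation, and Rarb, Cyp26a1 and several Hox and Cdx genes are textbook targets that respond to it directly.

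Values are the deposited read counts and RPKM (reads per kilobase of gene, scaled to the mapped reads of the library), and KO/WT ratios are ratios of RPKM. With 1 library a genotype there was no replicate, so no test was made and no p-value is given. The range in parentheses after a ratio is an exact (Clopper-Pearson) 95% interval that covers counting error only and takes the deposited counts as reads. A call of lower needed a ratio below 0.7 and an RPKM above 1 in wild type, and a call of higher needed a ratio above 1.5 and an RPKM above 1 in the other library. Pknox1, the gene that encodes Prep1, kept 332 reads against 505 in wild type (ratio 0.736, 0.638 to 0.846). At the protein level, the paper reports from immunoblotting that Prep1 was lost in line KO2. The second library is named by its label throughout.

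The lowest ratios of the group belonged to Rarb and Cyp26a1, and these were also the members whose RefSeq promoters held the classic repeat for RAR-RXR pairs. A promoter here is 250 bases before to 50 after an annotated RefSeq start, on the strand of the gene. The 15 promoters of 8 members, all but Crabp2, were searched on both strands for 2 half-sites in the same orientation, with 5 bases between them. The half-site AGGTCA was accepted, as were the related form AGTTCA, the form with a changed first base, GGGTCA, and finally the combination GGTTCA. Both promoters are printed 5′ to 3′ with the half-sites in capitals and are credited to RefSeq (GRCm38.p6). Their positions in mm9, the build of the deposited files, were found by exact match: chr14:17407941-17408240 on the minus strand, inside the annotated span of Rarb, and chr19:37772048-37772347 on the plus strand.
Rarb promoter: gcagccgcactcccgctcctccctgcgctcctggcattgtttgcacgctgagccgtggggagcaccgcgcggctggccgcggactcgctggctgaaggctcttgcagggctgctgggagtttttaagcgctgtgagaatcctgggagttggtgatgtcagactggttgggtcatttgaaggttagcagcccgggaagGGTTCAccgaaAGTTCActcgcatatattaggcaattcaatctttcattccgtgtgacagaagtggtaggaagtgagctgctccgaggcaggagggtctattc
Cyp26a1 promoter: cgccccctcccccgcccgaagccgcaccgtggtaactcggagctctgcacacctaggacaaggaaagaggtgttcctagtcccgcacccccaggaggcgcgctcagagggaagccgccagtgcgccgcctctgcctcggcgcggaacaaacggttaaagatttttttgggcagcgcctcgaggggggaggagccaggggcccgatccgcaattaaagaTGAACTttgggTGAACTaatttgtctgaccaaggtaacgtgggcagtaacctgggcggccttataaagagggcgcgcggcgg
In Rarb the repeat reads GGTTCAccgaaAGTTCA and lies 53 to 37 bases before the start. In Cyp26a1 it lies 32 to 16 bases before the start on the other strand, where it reads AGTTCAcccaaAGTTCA. Such a repeat was present in 32 of 32851 RefSeq promoters (0.0974%), which belong to 31 genes. Repeats with 1 base between half-sites (0.222% of all promoters) or 2 bases (0.268%) were not in the window of any member. A match of letters is a description of these windows and not evidence of binding. Of the 31 genes, 9 were matched in the expression tables. The median KO/WT ratio of these 9 was 1.01, and 2 of them had under 20 reads. Of 2 with a wild type RPKM above 1, 1 was called lower (Cyp26a1), beside 13.8% of all genes that passed this filter. Of 3 above 1 in the other library, 1 was called higher (Hbb-y, 0 and 107 reads), beside 7.2%.

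Among the receptors, the ligand-activated transcription factors of the pathway, Rarg and Rara made up nearly all of the RAR transcript. Rarg (chr15:102065369-102087948, minus strand) had 10956 reads in wild type and 7806 in the library labelled Prep1-/-, or 125 and 99.9 RPKM. It was the most abundant member in both libraries and its level was lower in the second, with a ratio of 0.797 (0.774 to 0.820) that did not reach the threshold for a call. Rara (chr11:98789132-98836256, plus strand) had 5421 and 6901 reads, or 38.4 and 54.7 RPKM. Its ratio of 1.42 (1.37 to 1.48) was the highest of the members and just under the threshold of 1.5. These receptors thus differed in opposite directions by more than their counting error.

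Rarb (chr14:17263356-17651381, minus strand) encodes the receptor best known for responding to its own ligand. It had 51 reads in wild type and 8 in the library labelled Prep1-/-, or 0.545 and 0.106 RPKM. Its ratio of 0.194 (0.0719 to 0.372) means 5.17-fold lower (2.69 to 13.9), the lowest of the 9, but with a wild type RPKM under 1 it was not called. Among 2894 genes with 40 to 200 wild type reads, 258 (8.91%) had a ratio below 0.5. The level of Rarb was far below that of the other receptors in both libraries.

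The sum of the receptors was close in the libraries, at 164.3 and 154.6 RPKM. Rara contributed 23.4% of that sum in wild type and 35.4% in the library labelled Prep1-/-. Rarg contributed 76.3% and 64.6%, and Rarb 0.332% and 0.0683%. Rarg RPKM was 3.26 times that of Rara in wild type and 1.83 times in the other library. This ratio within a library, which does not depend on library scaling, was 0.560 times as large in the library labelled Prep1-/- (exact 95% interval 0.534 to 0.586).

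**Figure D1:**
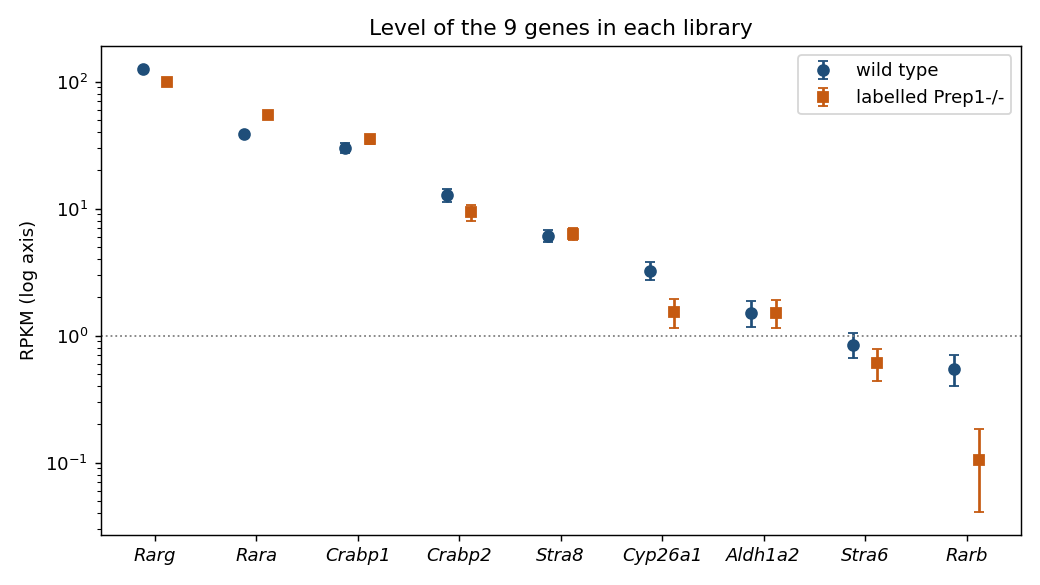
RPKM of the 9 retinoic acid genes on a log axis for wild type and for the library labelled Prep1-/-, with exact 95% counting intervals as bars and 1 library per genotype. The order from Rarg (125 and 99.9 RPKM) down to Rarb (0.545 and 0.106 RPKM) is the same in both libraries.

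Stra6, Aldh1a2 and Cyp26a1 act on retinol and retinoic acid themselves, and Cyp26a1 was the only one of them with a difference beyond counting error. Stra6 (chr9:57911595-58001803, plus strand), the receptor that takes up retinol, had 77 and 49 reads, or 0.849 and 0.608 RPKM, and its interval reached past 1 (ratio 0.717, 0.487 to 1.03). Its annotated span overlaps Ccdc33 on the other strand, so reads of these genes may not be fully separated. Aldh1a2 (chr9:71063596-71144050, plus strand), the dehydrogenase that makes most embryonic retinoic acid, had 73 and 65 reads, or 1.52 and 1.51 RPKM. The ratio of 0.997 (0.702 to 1.41) leaves differences of that width undetectable at this depth.

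Cyp26a1 (chr19:37772298-37776018, plus strand), the cytochrome P450 that clears retinoic acid, had 144 reads in wild type and 60 in the library labelled Prep1-/-, or 3.25 and 1.53 RPKM. Its level was 2.13-fold lower (1.58 to 2.95), a ratio of 0.470 (0.339 to 0.634), and it was the only member called. Over all genes 13.8% of the 13795 with a wild type RPKM above 1 were called lower, and 1 of the 7 members in that range was, so the count does not set the members apart. In wild type the RPKM of Cyp26a1 was 2.14 times that of Aldh1a2, and in the other library 1.01 times (0.469 times as large, 0.291 to 0.753). In bulk RNA, fewer cells with a transcript and less transcript per cell cannot be told apart.

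The carriers Crabp1 and Crabp2 bind retinoic acid in the cytoplasm, and Crabp2 is the one known to hand it to the receptors. Crabp1 (chr9:54612555-54620917, plus strand) had 528 and 553 reads, or 30.1 and 35.2 RPKM (ratio 1.17, 1.04 to 1.32). Crabp2 (chr3:87752588-87757298, plus strand) had 288 and 189 reads, or 12.7 and 9.36 RPKM (ratio 0.735, 0.608 to 0.885). Neither was called, but their intervals lay on opposite sides of 1. Crabp1 RPKM was 2.36 times that of Crabp2 in wild type and 3.77 times in the library labelled Prep1-/- (1.60 times as large, 1.27 to 2.00). Reads shared by members of a gene family were divided between them by the authors' program, which can move values of such pairs.

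Stra8 (chr6:34870163-34889342, plus strand), needed for germ cells to enter meiosis and named for its response to retinoic acid, had 311 and 289 reads, or 6.10 and 6.34 RPKM. Its ratio of 1.04 (0.882 to 1.22) was within counting error. The germ cell markers Ddx4, Dazl, Sycp3, Dmrt1 and Prdm1 summed to 40.3 RPKM in wild type and 39.4 RPKM in the library labelled Prep1-/-, most of it Dmrt1 at 30.2 and 25.3 RPKM (ratio 0.839). The other 4 had ratios above 1, at 1.31 for Ddx4, 1.40 for Dazl, 1.27 for Sycp3 and 1.87 for Prdm1. Only Prdm1 was called higher, 1 of 5 with an RPKM above 1 in the other library, beside 7.2% of all genes that passed this filter. None was called lower. Of the 5 markers, 3 had an interval above 1 and 1 (Dmrt1) below it, beside 20.6% and 36.0% of all genes with at least 20 reads.

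**Figure D2:**
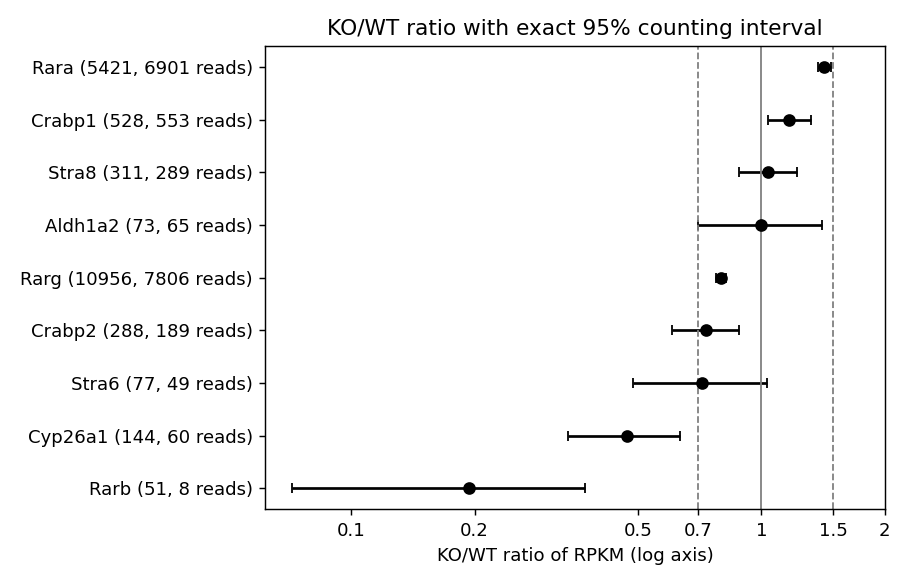
KO/WT ratio of RPKM on a log axis for each of the 9 genes, ordered by ratio, with exact 95% counting intervals and the thresholds of 0.7 and 1.5. Rarb (0.194) and Cyp26a1 (0.470) lie below 0.7, Rara (1.42) lies just under 1.5, and 3 intervals include 1.

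Across the 9 genes, 4 had an interval wholly below 1 (Rarb, Rarg, Cyp26a1 and Crabp2), 2 wholly above it (Rara and Crabp1) and 3 had an interval that included it (Stra6, Aldh1a2 and Stra8). Over the 15588 genes with at least 20 reads in the libraries together, 36.0% had an interval below 1 and 20.6% above. No member was called higher, against 7.2% of 13677 genes that passed the RPKM filter there. The median log2 ratio of the members was −0.33, beside −0.07 over 14254 genes with RPKM above 1 in either library. Without a filter on RPKM, Cyp26a1 and Rarb had ratios below 0.7, beside 15.2% of the genes with at least 20 reads, and no member had a ratio above 1.5, beside 6.99%. In each library the levels stood in the order Rarg, Rara, Crabp1, Crabp2, Stra8, Cyp26a1, Aldh1a2, Stra6, Rarb, and neighbours in that order had overlapping counting intervals only for Stra6 and Rarb in wild type and for Cyp26a1 and Aldh1a2 in the other library.

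**Figure D3:**
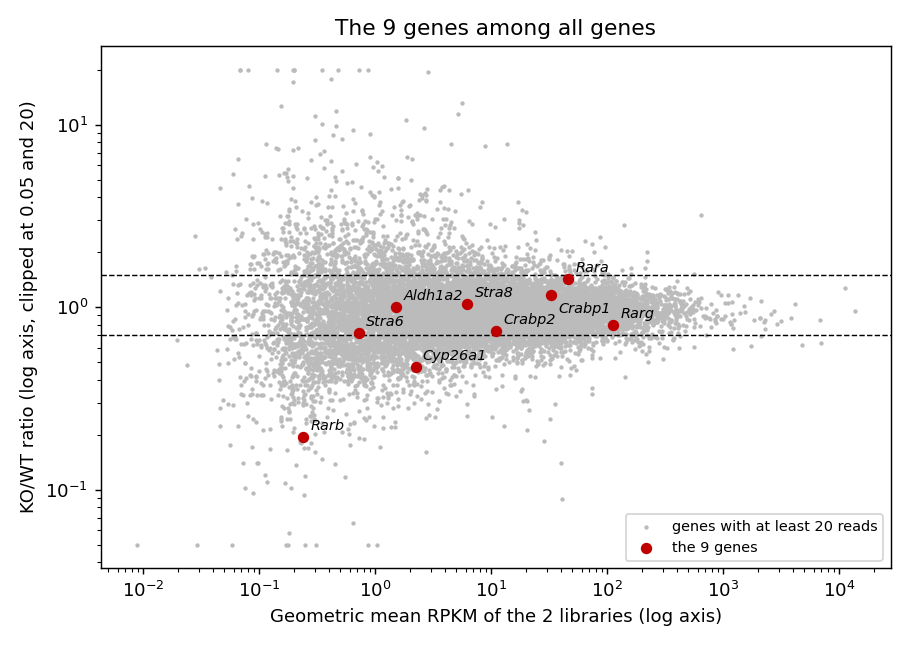
KO/WT ratio against the geometric mean RPKM of the libraries, both on log axes, for genes with at least 20 reads together, with the 9 retinoic acid genes marked and extreme ratios drawn at the limits named on the axis. Rarb (ratio 0.194) and Cyp26a1 (0.470) lie below most genes at their level, and Rarg (0.797) has the highest level of the 9.

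Genes next to the members were listed to see whether differences extended along the chromosome. On each side the nearest gene with at least 20 reads in the libraries together was taken. Counted this way, Cyp26a1 lies 14.6 kb from Exoc6, an exocyst gene with a ratio of 1.21 (1.05 to 1.40), and 198 kb from Fer1l3 (0.775, 0.722 to 0.832). The breakdown gene Cyp26c1, with 10 and 8 reads, lies between Exoc6 and Cyp26a1 and was passed over. Rarb ends 55 bp from Top2b, which encodes a DNA topoisomerase and was called lower with 805 and 501 reads (ratio 0.696, 0.621 to 0.779). Next to Crabp2, the neural progenitor gene Nes was called lower (0.684, 0.660 to 0.709). Next to Stra6, the steroid synthesis gene Cyp11a1 was called lower on 62 and 34 reads (0.621, 0.391 to 0.946). The intervals of Top2b, Nes and Cyp11a1 all included the threshold of 0.7, and the ratios of Top2b and Nes were close to it. Next to Stra8, 2010107G12Rik was called higher on 32 and 57 reads (1.97, 1.27 to 3.17). None of the neighbours of Rara, Rarg, Aldh1a2, Cyp26a1 or Crabp1 was called.

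Further genes of the pathway were read from a list of 39, all of which were found in the tables. Of these, 24 had a wild type RPKM above 1, and 5 of these were called lower, beside 13.8% of all genes that passed this filter. Of the 23 above 1 in the other library, 2 were called higher, beside 7.2%. The median log2 ratio of the list was −0.13, beside −0.02 over all genes. Of the 32 genes with at least 20 reads, 12 had an interval below 1 and 10 above it, beside 36.0% and 20.6% of all such genes. As with the members, genes of several roles differed in both directions. The breakdown genes Cyp26b1 (ratio 0.618) and Cyp26c1 (0.915) were both below 1, with intervals that included 1.

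Among the carriers and the enzymes that interconvert retinol, retinal and retinoic acid, 3 genes were called lower and 1 higher. With a wild type RPKM above 1, the lower calls were 1 of 1 uptake and storage genes and 2 of 4 synthesis genes, beside 13.8% of all genes. The higher call was 1 of 3 synthesis genes above 1 in the other library, beside 7.2%. Dhrs3 and the carrier gene Fabp5 also passed the RPKM filters and were not called. The serum retinol carrier gene Rbp4 had 70 and 40 reads (ratio 0.646, 0.422 to 0.956). Rdh11, known mainly to reduce retinal, had 976 and 600 reads (0.688, 0.620 to 0.762), and it was not called under either other library scaling. Aldh1a3, a retinal dehydrogenase like Aldh1a2, had 113 and 47 reads (0.471, 0.324 to 0.659). Rdh10, which oxidises retinol to retinal, was called higher with 267 and 366 reads (1.53, 1.31 to 1.80). Rdh10 was not called with 1 added to both RPKM values or with a threshold of 2. Dhrs3, which returns retinal to retinol, had 90 and 61 reads (0.762, 0.538 to 1.06), and Cyp26b1, the paralogue of Cyp26a1, had 37 and 20 reads (0.618, 0.332 to 1.07).

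Among the receptors' partners, Rxra had a ratio of 1.11 (1.04 to 1.19) and Rxrb 0.858 (0.820 to 0.897), while Rxrg, the least abundant, was called higher with 112 and 154 reads (1.53, 1.20 to 1.98). Rxrg was the 1 higher call of 3 partners with an RPKM above 1 in the other library, beside 7.2% of all genes that passed this filter. Rxrg was not called with 0.1 added to both RPKM values. The 8 coactivator and corepressor genes ranged from 0.833 for Nrip1 to 1.31 for Crebbp, and none was called. Of them, 5 had an interval above 1 and 1 below it, beside 20.6% and 36.0% of all genes with at least 20 reads.

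Of 10 genes listed as responding to retinoic acid, 6 had a wild type RPKM above 1, and 2 of these were called lower, beside 13.8% of all genes that passed this filter. None was called higher. Cdx1, an activator of posterior Hox genes, had 1258 and 620 reads, or 24.4 and 13.5 RPKM (ratio 0.552, 0.500 to 0.607). Meis1, which encodes a homeodomain protein of the same class as Prep1, had 378 and 152 reads, or 2.41 and 1.09 RPKM (0.451, 0.370 to 0.544). A further 3 genes had ratios below 0.7 with a wild type RPKM under 1: Hoxb1 (0.505), Nr2f1 (0.497, with an interval of 0.161 to 1.17) and Foxa1 (0.578). In contrast, Gbx2 had a ratio of 1.05, Tgm2 1.18 and Bhlhe40 0.820. The gene listed as Stra13 had a ratio of 1.15, but this name is also an older name of Bhlhe40. The entry counted here as Stra13 is a different gene, on chromosome 11, while Bhlhe40 is on chromosome 6. Its place among the responding genes rests on the name alone.

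**Figure D4:**
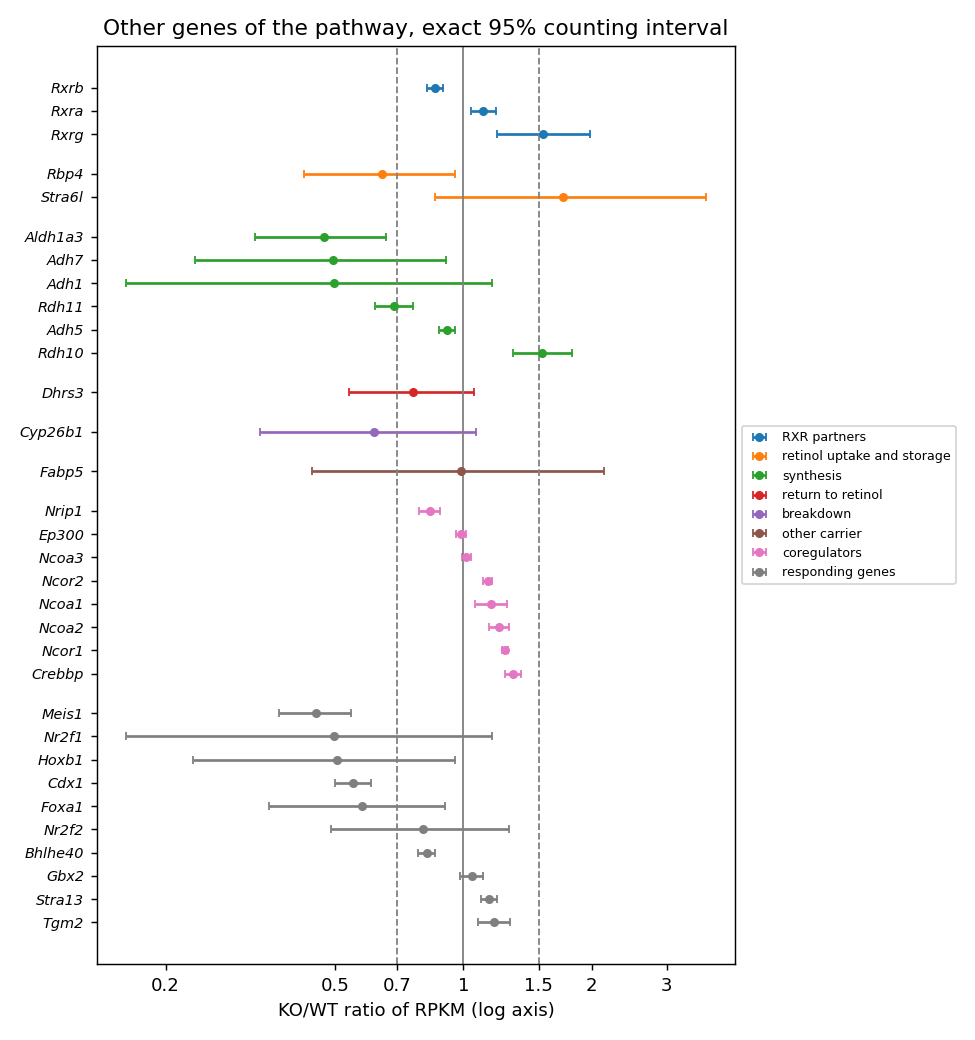
KO/WT ratio of RPKM on a log axis for the genes of the pathway list with at least 20 reads, grouped by role, with exact 95% counting intervals and the thresholds of 0.7 and 1.5. Meis1 (0.451) has the lowest ratio shown, and the 8 coregulators lie between 0.833 and 1.31.

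Markers of other cells that an ES culture can hold also differed between the libraries. The summed RPKM of 10 primitive and visceral endoderm markers was 18.1 in wild type and 9.87 in the library labelled Prep1-/-, with 6 above an RPKM of 1 in wild type and 5 of those called lower, among them Gata4 (1156 and 350 reads), beside 13.8% of all genes that passed this filter. Sox7 differed the other way (ratio 1.39, 1.09 to 1.79), and Afp had 1 and 6 reads. For 5 trophectoderm markers the sums were 257 and 153 RPKM, most of it Krt8, with 4 called lower, all 4 that were above 1 RPKM in wild type. Neural ectoderm markers summed to 24.6 and 18.6 RPKM, most of it Nes at 22.2 and 15.2 RPKM. Nes was the 1 of 4 called lower, with a ratio of 0.684 (0.660 to 0.709) close to the threshold of 0.7. Pax6 was called higher (ratio 1.83), and Sox1 had a ratio of 1.26. Fibroblast markers summed to 24.0 and 29.8 RPKM with none of 6 called, and Lum was at 0 reads in wild type. Of the 5 with at least 20 reads, 2 had an interval above 1, beside 20.6% of all such genes, and 0 below it. These were Col1a1 (ratio 1.36, 1.25 to 1.48) and Postn, with 6 and 33 reads (5.43, 2.54 to 18.0). Postn was under 1 RPKM in both libraries. ES cell markers, including Pou5f1 and Nanog, summed to 1968 and 2264 RPKM. All 9 passed the RPKM filters, with 0 called lower, beside 13.8% of all genes, and 1 (Klf4) called higher, beside 7.2%. Of the 9, 8 had an interval above 1, beside 20.6% of all genes with at least 20 reads. Zfp42 had an interval below 1 (ratio 0.801, 0.684 to 0.934), beside 36.0%. The part of such cells in the ratios of Rarb, Cyp26a1 and the other members was not tested.

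Prep1 peaks were compared with the starts of the genes in mm9. Of the 9 members only Rara had a peak within 20 kb of its start, beside 18.9% of 21446 annotated genes. This peak (chr11:98802983-98803717, 735 bp, score 20 against a median of 21 over 3902 peaks) lay 13.9 kb past the gene start and 1957 bp from the nearest start of any Rara transcript, inside the gene and overlapping no annotated exon. The 300 bases at its centre, chr11:98803200-98803499 on the plus strand (NCBIM37), are printed because this is the only peak within a member, with capitals marking a match to a relaxed form of the decameric (DECA) motif that Prep1 recognises together with Pbx.
Rara peak centre: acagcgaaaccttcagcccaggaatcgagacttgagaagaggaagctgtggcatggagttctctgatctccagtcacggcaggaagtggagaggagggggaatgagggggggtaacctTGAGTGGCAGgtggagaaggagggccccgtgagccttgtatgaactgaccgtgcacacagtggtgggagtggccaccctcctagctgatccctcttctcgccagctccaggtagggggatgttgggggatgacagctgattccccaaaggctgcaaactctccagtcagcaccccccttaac
The match is TGAGTGGCAG (chr11:98803318-98803327). The relaxed form occurred on either strand in 32.9% of the 3902 peak centres of this length and in 2.29% of the RefSeq promoters. The strict form, with 1 more position fixed and all its matches among those of the relaxed form, occurred in 23.1% and 0.874%. Neither form was in the promoter window of a member.

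The nearest peak to Stra8 lay 21.2 kb from its start and 2031 bp beyond its end, with a score of 12. For Crabp1 the distance from the start was 38.0 kb, for Stra6 54.3 kb and for Rarg 65.9 kb. Cyp26a1 and Crabp2 were 183 and 193 kb from a peak. The annotated start of Rarb was 453 kb from its nearest peak, which had a score of 135 and lay at the start of its neighbour Top2b. That peak was 209705 bp from the nearest start of any Rarb transcript and 65075 bp from the gene body. Aldh1a2 was 917 kb from a peak. Neither of the 2 members with a ratio below 0.7 had a peak within 20 kb of the start, beside 18.9% of all annotated genes. In the pathway list 4 of 38 placed genes had a peak within 20 kb of the start, beside the same 18.9%. These were Ncoa2 at 831 bp, Tgm2 at 8.44 kb, Rxrg at 14.6 kb and Meis1, where the peak overlapped the start itself.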

How the data were processed

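RNA-seq of mouse ES cells covered 1 wild type library and 1 library labelled Prep1-/-, and 1 Prep1 ChIP-seq peak list was used. The members and gene lists were chosen with earlier results of these data known. For RNA-seq the authors sequenced polyA+ RNA as 50 bp paired-end reads, estimated gene levels with RSEM on Ensembl release 63 (mm9) and used DESeq for their own analysis. They deposited a read count per gene, a whole number without normalization (29596294 reads in wild type and 25717811 in the library labelled Prep1-/-), and an RPKM value. These totals are several times the reads per sample that the methods state. The cause was not tested, and intervals are too narrow if the counts are inflated. The deposited RPKM was made from the count plus 1, and the KO/WT ratio of RPKM was 1.12 times that of the count plus 1 for every finite gene. RPKM was listed as Inf for 85 genes, none of them a member, and these were left out. ChIP reads were aligned with BWA and peaks called with MACS, both by the authors. The deposited peak list gives a whole-number score per peak with no stated scale, used here only for order. Program versions are not given in the sources used here.

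Ratios are of RPKM without a pseudocount. Intervals are exact (Clopper-Pearson) 95% binomial intervals of the reads, scaled to RPKM. Reads are not independent molecules, so intervals cover counting error only. With 1 library a group no genotype test was possible. The depth limits low genes: under 20 reads together, a gene was not counted for intervals. The genes named are the 9 members, genes on each side of them, Pknox1, and the members of the fixed pathway and marker lists that were called or that fill a role. A gene on a side is the nearest one with at least 20 reads together. The expression tables give no coordinates, so genes were placed with GENCODE M1 (NCBIM37), in place of the deposited coordinates that the plan had assumed. RefSeq promoters (GRCm38.p6) were placed in mm9 by exact sequence match. List members under another symbol were matched through RefSeq synonyms and chromosome: Stra6l is 1300002K09Rik and Bhlhe40 is Bhlhb2. The ratio, interval and call steps were tested on simulated data. Some genes of the planned pathway list are not reported here, and its counts leave them out. Alternatives were other scalings, pseudocounts, filters, thresholds and distances. Calculations used scipy 1.17.1, numpy 2.4.6 and pandas 2.3.3 under Python 3.11.15, and plots matplotlib 3.10.9.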

Additional observations from a re-analysis of the deposited data

How the results depend on the processing

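Of the members' ratios only that of Aldh1a2, at 0.997, crossed 1, to 1.03 when scaled by summed reads and 1.04 when the median ratio was scaled to 1. In all, 68 of the 88 values recomputed moved by less than their counting interval or, for counts, by less than 1.5 times. Scaling the median ratio of expressed genes to 1, a shift of 0.07 on the log2 scale, gave 1.49 for Rara and 0.834 for Rarg. Adding 1 to both RPKM values gave 0.715 for Rarb, since its RPKM is under 1. Members called lower were 2, with Rarb added, without the RPKM filter, with an RPKM above 0.5 and with at least 20 reads in its place. Pathway genes called lower were 12 of 39 without the filter, beside 4377 of 22633 genes. With at least 20 reads they were 11 of 32, beside 15.2% of all such genes. They were 8 with an RPKM above 0.5, 2 with 1 added and 2 with thresholds of 0.5 and 2, with no background given. Rdh11 was not called under either other scaling. Pathway genes called higher were 5 of 39 without the filter, beside 2848 of 22633 genes. They were 1 with 0.1 added, and 0 with 1 added and with thresholds of 0.5 and 2. Members with a peak were 0 within 5 kb, 3 within 50 kb, 5 within 100 kb and 0 with a score above the median. A share over all genes is given only for 20 kb from the gene start, so the other peak counts here have no background. The ratio from counts without the added read (0.175 for Rarb), the start of any transcript and the distance from the gene body were added after seeing the data. With the last of these, 2 members had a peak within 20 kb.

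No paired analysis was possible because there is 1 library per genotype and the labels carry no replicate numbers, and leaving out a library was not possible for the same reason. Differences between culture, passage or preparation of these lines cannot be told apart from genotype. Depth limits Rarb, Stra6, Aldh1a2 and Cyp26a1, each with under 150 reads in either library.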
